A study of Mus musculus with 8 samples.

Results

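The genes described here encode 10 amino acid transporters of the plasma membrane, among them several that the transcription factor ATF4 is known to induce under stress. They were taken by symbol from the deposited table of 21692 genes (Slc7a11, Slc7a5, Slc3a2, Slc7a1, Slc7a3, Slc6a9, Slc1a4, Slc1a5, Slc38a1 and Slc38a2), and all 10 were found and passed the filter on low counts. Forelimb buds of CD1 mouse embryos at gestation day 13 were kept in culture for 24 h, and their messenger RNA was sequenced. One group of 4 libraries received only the solvent dimethyl sulfoxide (vehicle 1 to 4), and the other group of 4 received a mixture of organophosphate esters modelled on Canadian house dust, diluted 1 in 300000 (OPE 1 to 4). Organophosphate esters are flame retardants and plasticisers that leave products and collect in dust. The cultures were of whole limb buds, which hold cartilage, connective tissue, vessels, blood cells, muscle and skin, so a bulk value cannot tell fewer cells of a type from less RNA per cell. Nothing in the labels ties the libraries of a group to separate litters or cultures, so a p-value here reflects only how far these samples spread, and that spread may be technical.

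When cells lack amino acids or their protein folding is disturbed, kinases phosphorylate the initiation factor eIF2. General protein synthesis then falls while the messenger RNA of ATF4 is translated more, and ATF4, paired with a partner of the C/EBP family, switches on genes that import amino acids, make them and charge them onto transfer RNA. Transporters are part of this programme because the supply of leucine, arginine, cystine, serine and glycine limits protein and glutathione synthesis. In bone-forming cells ATF4 is known for its role in amino acid import and collagen production.

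Totals of counted reads lay between 14986793 and 22006738 per library. The forelimb gene Tbx5 averaged 284 ± 11.1 CPM with vehicle and 308 ± 17.2 CPM with OPE (mean ± SD, n = 4). CPM are reads per library of 1e+06, on totals scaled by the TMM method. Of the hindlimb genes, Tbx4 averaged 27.5 ± 1.64 CPM with vehicle and 24.6 ± 2.73 CPM with OPE. Pitx1 averaged 3.32 ± 0.705 and 3.52 ± 0.794 CPM. OPE 3 was the far library on principal component 1, with lower values for longer genes. Its slope was -0.214 per doubling of gene length, against -0.031 to 0.0989 in the other 7 libraries. Ribosomal protein genes took 9.05% of its reads, against 4.55% to 5.83% in the others, and it had the fewest genes with a read (18777). Its summed level of 12 erythroid markers was 2632 CPM, against 1000 to 1475 CPM with vehicle and 1124 to 1382 CPM in the other OPE libraries. Globin genes made up most of that sum, with Hbb-y at 1279 CPM and Hba-a1 at 932 CPM in OPE 3. Among tested markers other than globins, Alas2 and Slc4a1 were at 6.03 and 2.57 CPM in OPE 3. These lay below their vehicle means of 7.68 and 4.46 CPM. Epor was at 5.13 CPM in OPE 3, against a vehicle mean of 4.95 CPM. OPE 1 was the far library on component 2. Of 11 macrophage markers tested, 7 fell at an edgeR adjusted p below 0.05 (Csf1r, Cx3cr1, Spi1, Mrc1, C1qa, C1qb and C1qc). In the same fit 0.438% of all genes were called lower. The summed level of the macrophage markers was 143 to 163 CPM with vehicle and 28.7 to 69.4 CPM with OPE, lowest in OPE 1. The summed level of 11 endothelial markers was 385 to 450 CPM with vehicle and 238 to 348 CPM with OPE, again lowest in OPE 1. Of these 11, 1 fell, Flt1, against the same 0.438% of all genes, and the call was lost without OPE 1. None of the markers tested was at 0 in any library. The summed level of 10 ectoderm markers was 284 to 354 CPM with vehicle and 208, 425, 322 and 179 CPM in OPE 1 to 4. That of 11 skeletal muscle markers was 3223 to 3700 CPM with vehicle and 2752, 2644, 4056 and 3555 CPM in OPE 1 to 4. No ectoderm or muscle marker was called by edgeR. The part of these cells in the transporter values was not tested.

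Every transporter gene had a log2 fold change above 0 with OPE, which 52.8% of all genes had, but none of the 10 reached an adjusted p below 0.05 in the edgeR quasi-likelihood fit, with Benjamini-Hochberg adjustment over 15517 genes. The median log2 fold change of the 10 was 0.77, against 0.014 for all genes tested, and it was 0.35 without OPE 1 and 0.93 without OPE 3. In Slc7a11, Slc7a5, Slc3a2, Slc7a1, Slc7a3 and Slc1a4 all 4 OPE libraries lay above all 4 vehicle libraries, which was the case for 4.05% of the genes tested. The same 6 had an unadjusted p below 0.05 with a higher level under OPE, a result that 5.85% of all genes gave. Among all genes 0.477% were called in either direction, 0.0387% higher (6 genes) and 0.438% lower (68 genes). The remaining 4, Slc6a9, Slc1a5, Slc38a1 and Slc38a2, overlapped between the groups.

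The number called depended on which libraries were used and on the test. OPE 1 was the highest library for all 10 genes, at 1.2 times the vehicle mean for Slc38a1 and 5.66 times for Slc7a3. Without OPE 1 all 10 fold changes were lower, and Slc7a5 (0.79 ± 0.10 SE, edgeR adjusted p = 0.00913), Slc1a4 (0.64 ± 0.08, adjusted p = 0.0104) and Slc7a3 (1.01 ± 0.18, adjusted p = 0.0483) passed. In that fit 0.0958% of all genes were called higher. Without OPE 4, Slc3a2 (adjusted p = 0.0397) and Slc7a3 (adjusted p = 0.0388) passed, where 0.304% of all genes were called higher. No transporter passed when any other single library was left out, OPE 3 included, where 0.518% of all genes were called higher. DESeq2 on the same counts called Slc7a5, Slc3a2, Slc7a3 and Slc1a4, with adjusted p from 0.000307 to 0.00281, among 504 genes called in all, and 1.04% of the genes with an adjusted p in DESeq2 were called higher. The same 4 are below 0.05 in the authors' deposited table, with adjusted p of 0.00059124, 0.0018137, 0.00039258 and 0.0030422 for Slc7a5, Slc3a2, Slc7a3 and Slc1a4. Of all genes with an adjusted p in the authors' deposited table, 2.68% lie below 0.05, and 0.878% do so with a higher level under the mixture.

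**Figure D1:**
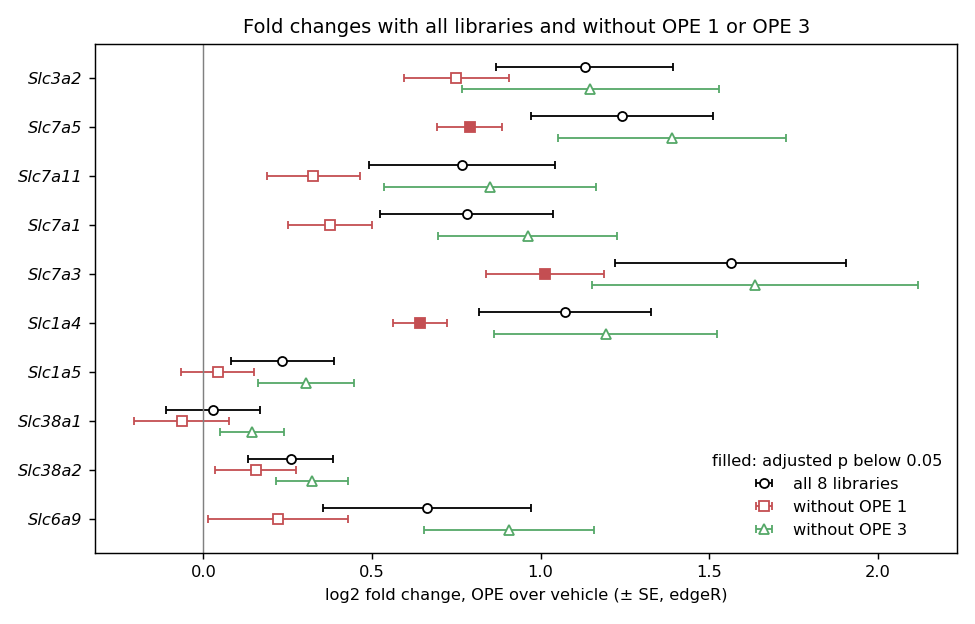
Log2 fold change of OPE over vehicle (x axis, ± SE, edgeR) for the 10 transporter genes (y axis), fitted with all 8 libraries (circles, 4 against 4), without OPE 1 (squares) and without OPE 3 (triangles); filled symbols have an adjusted p below 0.05. Without OPE 1 all values are lower, Slc7a5, Slc7a3 and Slc1a4 are the 3 filled symbols, and Slc38a1 lies at -0.065.

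The heavy chain of the CD98 complex and 2 of its light chains are members. Slc3a2 (chromosome 19, 8706882 to 8723369, minus strand, mm10; 13 exons after merging transcripts) encodes the CD98 heavy chain, a glycoprotein that carries its partner light chains to the cell surface. Its level was 109, 109, 86.4 and 88.8 CPM in vehicle 1 to 4 and 361, 161, 208 and 129 CPM in OPE 1 to 4. All OPE libraries were above all vehicle libraries, and OPE 4 came nearest to them. The mean was 98.2 ± 12.2 CPM with vehicle and 215 ± 103 CPM with OPE (SD, n = 4), a log2 fold change of 1.13 ± 0.26 (SE; edgeR adjusted p = 0.0906), and 0.75 ± 0.16 without OPE 1 (adjusted p = 0.0912).

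Slc7a5 (chromosome 8, 121881150 to 121907694, minus strand; 11 merged exons) encodes LAT1, the light chain that takes up leucine and other large neutral amino acids in exchange for glutamine. Its level was 74.8, 87.3, 83.8 and 87 CPM in vehicle 1 to 4 and 353, 150, 133 and 151 CPM in OPE 1 to 4. OPE 2, OPE 3 and OPE 4 were close to each other and between 1.59 and 1.82 times the vehicle mean, and OPE 1 was 4.24 times that mean. The log2 fold change was 1.24 ± 0.27 (edgeR adjusted p = 0.073).

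Slc7a11 (chromosome 3, 50364936 to 50443613, minus strand; GENCODE M21 gives a longer span from 49892526) encodes xCT, the light chain that imports cystine in exchange for glutamate and so feeds glutathione synthesis. It had 139 to 547 reads per library, and its level was 7.85, 8.31, 8.85 and 8.92 CPM in vehicle 1 to 4 and 25.2, 9.53, 12 and 10.6 CPM in OPE 1 to 4. The groups did not overlap, but OPE 2 was only 1.12 times the vehicle mean. The log2 fold change was 0.77 ± 0.28 (edgeR adjusted p = 0.254), and 0.33 ± 0.14 without OPE 1 (adjusted p = 0.412).

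On the deposited FPKM scale, which divides by gene length and so allows genes to be set side by side, Slc7a5 made up 48.6% to 52% of the summed level of the 6 light chain genes Slc7a5, Slc7a6, Slc7a7, Slc7a8, Slc7a10 and Slc7a11 in the vehicle libraries and 64.2% to 81.1% in the OPE libraries. Slc7a11 made up 1.89% to 1.98% with vehicle and 1.62% to 2.21% with OPE. The ratio of Slc7a5 to Slc7a11 was 24.8 to 27.6 with vehicle and 29 to 41.3 with OPE, with no overlap. The ratio of the heavy chain to the summed light chains was 0.634 to 0.883 with vehicle and 0.695 to 1.26 with OPE, and these ranges overlapped. Slc7a6, the light chain of cationic and neutral amino acid exchange, had 15.3 ± 1.03 FPKM with vehicle and 15.3 ± 0.802 FPKM with OPE. These ratios are descriptions chosen with the values known.

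**Figure D2:**
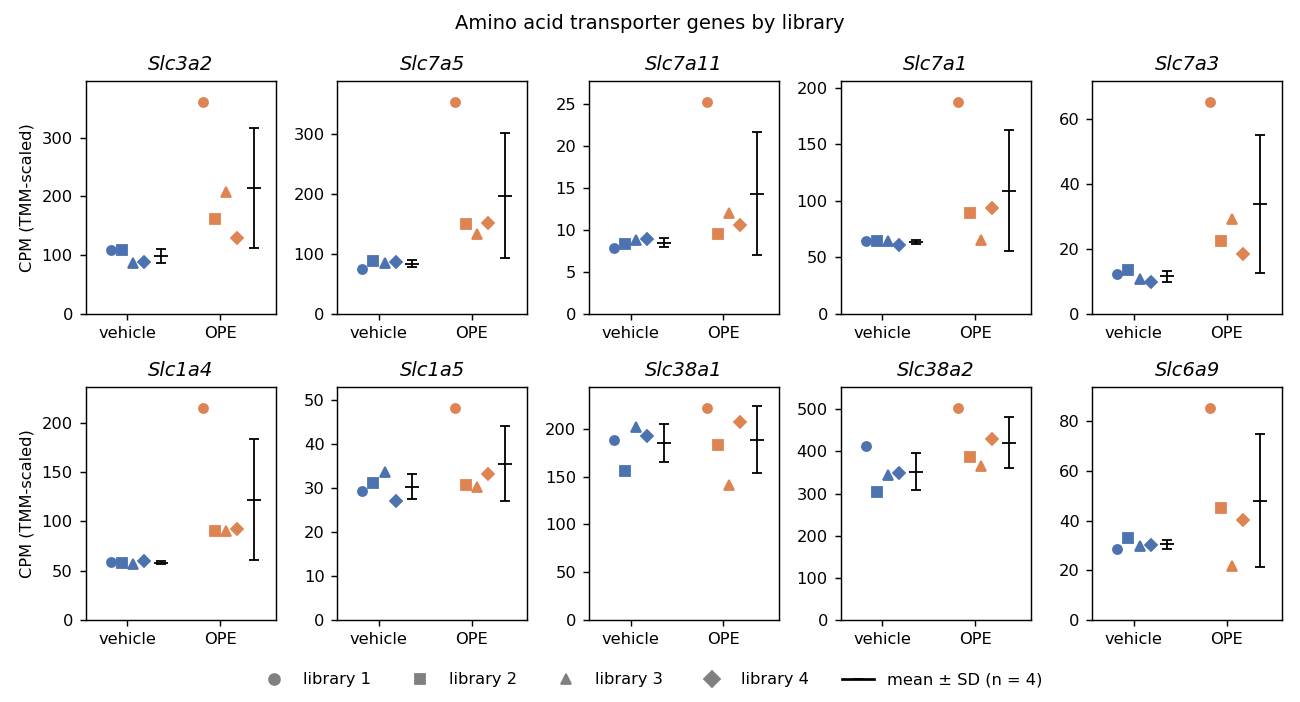
CPM on TMM-scaled totals (y axis, from 0, with its own scale for each gene) for the 10 transporter genes in the 4 vehicle and 4 OPE libraries (x axis); marker shapes stand for the library number and black bars for the mean ± SD (n = 4). The circle of OPE 1 is the highest point in every panel, and in Slc7a5 and Slc1a4 the other 3 OPE libraries lie close together above the vehicle libraries.

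The promoter of Slc7a11 is shown because ATF4 is known to act on this gene and the window holds 2 matches to its motif. The motif searched was the core of the C/EBP-ATF response element, TGATGNAA, on both strands, in the 250 bases before and 50 after each start listed by RefSeq (GRCm38.p6, the build also called mm10). The stretch printed lies on the minus strand at chr3:50443627-50443705, from base -92 to base -14 before the start, and the capitals mark the matches.
Slc7a11: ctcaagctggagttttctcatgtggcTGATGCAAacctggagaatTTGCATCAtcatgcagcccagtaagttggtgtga
The first match (-66 to -59) reads along the gene and the second (-47 to -40) is on the opposite strand. Of 27025 genes with a listed promoter 4.51% hold at least 1 match, and 0.0851% hold at least 2 in 1 window. A match describes the letters and is not evidence of binding.

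The cationic transporters carry arginine, lysine and ornithine into the cell. Slc7a3 (chromosome X, 101079210 to 101086020, minus strand; 11 merged exons) encodes CAT3 and had the largest fold change of the 10. Its level was 12.1, 13.5, 10.7 and 9.63 CPM in vehicle 1 to 4 and 65.1, 22.5, 29.2 and 18.4 CPM in OPE 1 to 4. The lowest OPE library was 1.6 times the vehicle mean and OPE 1 was 5.66 times it. The mean was 11.5 ± 1.69 CPM with vehicle and 33.8 ± 21.4 CPM with OPE, a log2 fold change of 1.56 ± 0.34 (edgeR adjusted p = 0.0734).

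Slc7a1 (chromosome 5, 148327410 to 148399904, minus strand; 14 merged exons) encodes CAT1, the widely expressed member of the family. Its level was 64.4, 64.3, 64.2 and 60.6 CPM in vehicle 1 to 4 and 187, 89, 65.3 and 93.4 CPM in OPE 1 to 4. The vehicle libraries were tightly grouped (63.4 ± 1.84 CPM, SD, n = 4), and OPE 3 exceeded the highest of them by under 1 CPM. On the deposited FPKM scale OPE 3 (8.45) lay below the vehicle range (8.65 to 9.14), so the separation of the groups held on the TMM scale and on the authors' size factors and not on FPKM. The log2 fold change was 0.78 ± 0.26 (edgeR adjusted p = 0.214), 0.38 ± 0.13 without OPE 1 and 0.96 ± 0.27 without OPE 3 (adjusted p = 0.309 and 0.137). The ratio of Slc7a3 to Slc7a1 on the FPKM scale was 0.415 to 0.549 with vehicle and 0.514 to 1.17 with OPE, and the ranges overlapped. It was highest in OPE 3, the library with lower values for longer genes. Slc7a1 is the longer gene (7179 against 2750 bases), and the part of length in this ratio was not tested.

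The neutral amino acid exchangers of the SLC1 family are a pair of close relatives with different values here. Slc1a4 (chromosome 11, 20302180 to 20332713, minus strand; 8 merged exons) encodes ASCT1, which exchanges alanine, serine, cysteine and threonine. Its level was 59, 57.5, 56.8 and 59.6 CPM in vehicle 1 to 4 and 215, 90.7, 90.6 and 92.7 CPM in OPE 1 to 4. The libraries OPE 2, OPE 3 and OPE 4 were nearly equal at 1.56 to 1.59 times the vehicle mean. The log2 fold change was 1.07 ± 0.26 (edgeR adjusted p = 0.0972), and without OPE 1 it was 0.64 ± 0.08.

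Slc1a5 (chromosome 7, 16781346 to 16798274, plus strand; 9 merged exons) encodes ASCT2, a main route of glutamine uptake in dividing cells. Its level was 29.2, 31.1, 33.6 and 27 CPM in vehicle 1 to 4 and 48, 30.6, 30.2 and 33 CPM in OPE 1 to 4. OPE 1 alone lay above the vehicle range. The log2 fold change was 0.23 ± 0.15 (edgeR adjusted p = 0.569) and 0.042 ± 0.11 without OPE 1. The ratio of Slc1a4 to Slc1a5 on the FPKM scale was 1.21 to 1.58 with vehicle and 2.01 to 3.2 with OPE, with no overlap. A ratio of 2 genes within a library does not depend on how the library was scaled. It can still depend on gene length where a library's values do, as in OPE 3.

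The promoter window of Slc1a4 holds a single match to TGATGNAA, on the strand opposite to the gene and across its start (bases -4 to 4). It is shown from base -30 to the end of the match, at chr11:20332710-20332743 on the minus strand (RefSeq, GRCm38.p6), with the match in capitals.
Slc1a4: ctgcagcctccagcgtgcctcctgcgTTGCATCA
Windows were listed for 6 of the 10 genes (Slc7a11, Slc3a2, Slc7a1, Slc6a9, Slc1a4 and Slc38a2), and the matches lay in Slc7a11 and Slc1a4, which is 2 of 6. Windows for Slc7a5, Slc7a3, Slc1a5 and Slc38a1 were not used here. Among ATF4 target enzymes and effectors with a window, 6 of 18 held a match (Asns, Pycr1, Chac1, Got1, Vldlr and Fgf21). Among regulators of the integrated stress response 3 of 14 did (Atf3, Trib3 and Nupr1). Among the other amino acid transporters 1 of 26 did, Slc7a7, which has a log2 fold change below 0. Slc7a7 holds 3 matches in all, with 2 in 1 window as in Slc7a11. The core of the antioxidant response element, TGACNNNGC, through which NRF2 acts, was found in windows of Slc7a1, Slc6a9 and Slc38a2 and in 14% of all genes, and was not found in the Slc7a11 window. The cyclic AMP response element TGACGTCA was found in none of the 6 genes and in 2.03% of all genes.

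The sodium-coupled transporters of the SLC38 family bring in small neutral amino acids such as alanine and glutamine. Slc38a2 (chromosome 15, 96687394 to 96699698, minus strand) encodes SNAT2, which is known to adapt to amino acid shortage. Its level was 412, 304, 344 and 348 CPM in vehicle 1 to 4 and 502, 387, 364 and 430 CPM in OPE 1 to 4. OPE 2 and OPE 3 lay inside the vehicle range, and the log2 fold change was 0.26 ± 0.13 (edgeR adjusted p = 0.422), and 0.16 ± 0.12 without OPE 1 (adjusted p = 0.663). Slc38a1, which encodes SNAT1 (chromosome 15, 96571418 to 96642913, minus strand), was at 156 to 202 CPM with vehicle and 141 to 222 CPM with OPE. The OPE range enclosed the vehicle range, and the log2 fold change was 0.029 ± 0.14 (edgeR adjusted p = 0.96).

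Slc6a9 (chromosome 4, 117834506 to 117875198, plus strand) encodes the glycine transporter GlyT1. Its level was 28.7, 33, 29.9 and 30 CPM in vehicle 1 to 4 and 85.2, 44.9, 21.7 and 40.1 CPM in OPE 1 to 4. OPE 3 was below all vehicle libraries and the other 3 OPE libraries were above them all. The log2 fold change was 0.66 ± 0.31 (edgeR adjusted p = 0.39), 0.91 ± 0.25 without OPE 3 (adjusted p = 0.13) and 0.22 ± 0.21 without OPE 1 (adjusted p = 0.718). Of the exon bases of Slc6a9, 27.8% overlap exons of Ccdc24 on the other strand, which had 127 reads in all against 5912 for Slc6a9. A further 9.94% overlap the noncoding Gm17114 and 0.895% overlap B4galt2, both also on the other strand; B4galt2 had 13534 reads. Strand use in the counting was not stated in the labels, and without it reads from these overlaps cannot be told apart. No other gene of the 10 shares exon bases with another gene in GENCODE M21.

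Levels per length ran from 0.935 to 77.4 FPKM in the vehicle libraries. On the deposited FPKM scale the order was Slc38a2 (77.4 ± 9.44 FPKM, SD, n = 4), Slc3a2 (35.5 ± 4.36), Slc38a1 (24.2 ± 2.58), Slc7a5 (24.1 ± 1.81), Slc1a4 (15.1 ± 0.363), Slc1a5 (11 ± 0.984), Slc7a1 (8.98 ± 0.225), Slc6a9 (8.89 ± 0.567), Slc7a3 (4.25 ± 0.621) and Slc7a11 (0.935 ± 0.0593). Slc38a1 and Slc7a5 overlapped in their ranges, as did Slc7a1 and Slc6a9, and the other neighbours in this order did not. With OPE the first places were Slc38a2 (89.5 ± 14.7 FPKM), Slc3a2 (74.9 ± 36.2), Slc7a5 (55.1 ± 29.9) and Slc1a4 (30.7 ± 15.8), with Slc38a1 (24 ± 5.08) behind them. Each of these overlapped the next, and in the OPE group Slc7a3 and Slc7a11 were the only neighbours whose ranges did not overlap. The order was the same with reads per kilobase on TMM-scaled totals in both groups.

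**Figure D3:**
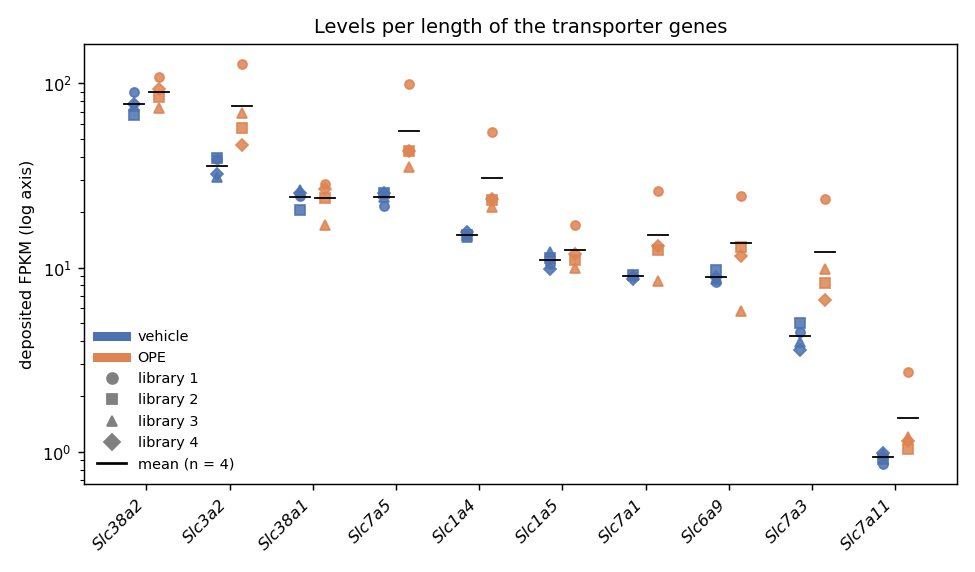
Deposited FPKM (y axis, log scale) of the 10 transporter genes in each library, ordered by their vehicle mean (x axis); colours stand for the groups, marker shapes for the library number and black lines for the mean of 4 libraries. The means of Slc7a5 and Slc1a4 lie above that of Slc38a1 in the OPE group, and Slc7a11 is the lowest gene in both groups.

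The pathway that controls many of these transporters was described with lists of its genes. Of 15 regulators of the integrated stress response, 1 rose, against 0.0387% of all genes, and 14 did not pass. The 1 was Nupr1, a stress-induced chromatin protein gene (log2 fold change 1.45 ± 0.27, edgeR adjusted p = 0.0484). Of the 15, 11 were above 0, against 52.8% of all genes. The list median was 0.31 (0.19 without OPE 1 and 0.091 without both OPE 1 and OPE 3). Nupr1 passed in 10 of 21 alternative settings, with adjusted p up to 0.159. Without OPE 1 the gene called in this list was Trib3, and without OPE 3 none was. Of all genes, 0.0958% and 0.518% were called higher in these fits. DESeq2 called 5 (Atf4, Atf5, Ddit3, Nupr1 and Trib3) as higher, against 1.04% of all genes. Trib3, a pseudokinase gene that ATF4 induces and that restrains it, gave 2.05 ± 0.43 (adjusted p = 0.0647), Atf4 itself 0.70 ± 0.15 (adjusted p = 0.0678) and Atf5, a related factor, 1.27 ± 0.29 (adjusted p = 0.0873). Ddit3, which encodes the factor CHOP, gave 1.06 ± 0.28 (adjusted p = 0.13). The eIF2 kinase genes Eif2ak1, Eif2ak2, Eif2ak3 and Eif2ak4 gave values between -0.28 and 0.12.

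Of 20 ATF4 target enzymes and effectors, 1 rose, Gdf15, a stress-induced cytokine gene (2.95 ± 0.34, edgeR adjusted p = 0.0071). Of all genes tested, 0.0387% were called higher. Gdf15 was low with vehicle, at 0.741 ± 0.195 CPM, against 5.78 ± 2.39 CPM with OPE (SD, n = 4). It had 460 reads in all. The other 19 did not pass. Of the 20, 18 were above 0, against 52.8% of all genes, with a list median of 0.56. The 2 below 0 were Ddit4 (-0.49 ± 0.27, edgeR adjusted p = 0.485) and Cbs (-0.056 ± 0.24, adjusted p = 0.955). In 11 of the 20 all OPE libraries were above all vehicle libraries, as in 4.05% of all genes tested. DESeq2 called 9 of the 20 as higher, against 1.04% of all genes. Without OPE 1 edgeR called 4 (Asns, Chac1, Gdf15 and Mthfd2, list median 0.39), against 0.0958% of all genes called higher. Without OPE 3 it called 4 (Cth, Gdf15, Phgdh and Pycr1, list median 0.60), against 0.518% of all genes. Asns, asparagine synthetase, gave 1.05 ± 0.20 (adjusted p = 0.0504), Mthfd2, a mitochondrial folate enzyme, 1.00 ± 0.20 (adjusted p = 0.0522), Phgdh, the first enzyme of serine synthesis, 0.73 ± 0.15 (adjusted p = 0.0552), and Chac1, which degrades glutathione, 1.90 ± 0.39 (adjusted p = 0.061). Relative to the vehicle mean, the median of the 10 transporters was 1.56 in OPE 1, 0.53 in OPE 2, 0.28 in OPE 3 and 0.40 in OPE 4 on the log2 scale, and that of the 20 target genes was 1.08, 0.33, 0.54 and 0.35. OPE 1 was thus highest for both lists, while OPE 3 ranked second for the target genes and last for the transporters. The part of gene length in the ranks of OPE 3 was not tested.

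**Figure D4:**
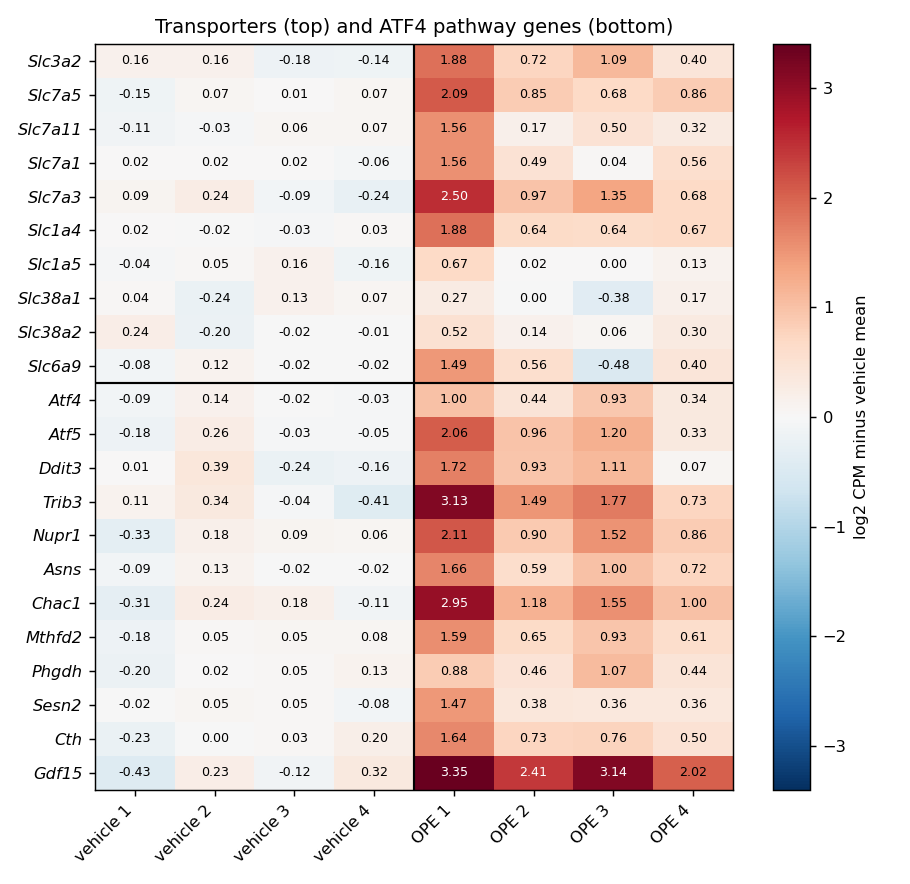
Log2 CPM minus the vehicle mean of each gene (colour and number; blue below 0, red above 0) in the 8 libraries (columns), for the 10 transporter genes (above the line) and 12 genes of the ATF4 pathway (below it). The 12 pathway genes were picked from the longer lists, and all have a fold change above 0. Among the genes drawn, OPE 1 has the highest value for every gene but Phgdh, which is highest in OPE 3. In OPE 3 Slc6a9 and Slc38a1 are at -0.48 and -0.38. Genes not drawn include Ddit4 (log2 fold change -0.49), highest in vehicle 1, and Psph and Got1, highest in OPE 3.

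The genes of nearest profile were found by the root mean square difference over the 8 libraries of log2 CPM relative to the vehicle mean, among genes of at least 5 CPM whose range over the libraries was at least 0.5 times that of the transporter. For Slc6a9 they were Kif1a, Slc7a1 and Rhbdd1 (0.196 to 0.228), for Slc1a5 Gpd2, Mafk and Enpp5, for Slc38a1 Atxn1, Dnal1 and Ercc6, and for Slc38a2 Dlg1, Mib1 and Trpm7, and none of these is on the ATF4 lists. For Slc7a5 they were Slc1a4 (a root mean square difference of 0.143), Cth, an enzyme of cysteine synthesis (0.219), and Asns (0.221), out of 1133 candidates. For Slc1a4 they were Slc7a5, Cth (0.16) and Asns (0.167). For Slc3a2 they were Atf5 (0.179), Ddit3 (0.181) and Asns (0.185). For Slc7a3 they were Fgf21, a stress-induced hormone gene (0.194), Atf5 (0.237) and Nupr1 (0.257). For Slc7a11 and Slc7a1 the nearest gene was Sesn2, whose product senses leucine (0.12 and 0.142), followed by Cars and Jdp2 (0.184 and 0.192) for Slc7a11 and by Dusp8 and Slc6a9 (both 0.206) for Slc7a1. All 8 libraries enter each value, so the difference between groups and the height of OPE 1 are part of the likeness.

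Amino acid transporters outside the 10 had a median log2 fold change near that of all genes. Of 36 on the list 20 could be tested, and none had an edgeR adjusted p below 0.05. An unadjusted p below 0.05 was found for 4 (13.2% of all genes tested had one, in either direction). The log2 fold change was above 0 in 10 and below 0 in 10, with a median of 0.012. Of all genes, 52.8% were above 0. DESeq2 called 2, Slc7a8 and Slc43a2, both lower, where 3.11% of all genes were called in either direction. The lowest was Slc7a8, the CD98 light chain LAT2 (-1.15 ± 0.23, edgeR adjusted p = 0.0535), from 8.19 ± 0.991 CPM with vehicle to 3.69 ± 1.32 CPM with OPE. Slc43a2, a facilitated transporter of large neutral amino acids, gave -0.60 ± 0.16 (adjusted p = 0.128), and Slc7a7, the light chain y+LAT1, gave -0.47 ± 0.15 (adjusted p = 0.186). In these 3 genes all OPE libraries were below all vehicle libraries, which was the case for 5.44% of the genes tested. The macrophage markers, summed above, were lower in the same 4 libraries, and their part in these 3 values was not tested. Slc16a10, a transporter of aromatic amino acids, gave 0.25 ± 0.10 (adjusted p = 0.33).

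Lysosomal amino acid transporters return the products of protein breakdown to the cytosol, and 6 of 8 genes were tested. None was called by edgeR or DESeq2, and 3 had an unadjusted p below 0.05 (13.2% of all genes). Of the 6, 5 were above 0, against 52.8% of all genes, with a median of 0.20. Without OPE 1, 2 had such a p and the median was 0.12. Pqlc2, the lysosomal exporter of cationic amino acids, gave 0.32 ± 0.11 (edgeR adjusted p = 0.215), and Ctns, the lysosomal cystine exporter, gave 0.28 ± 0.09 (adjusted p = 0.221). Slc38a7 and Slc36a1 gave 0.24 ± 0.11 and 0.16 ± 0.13 (adjusted p = 0.372 and 0.69). Among genes by which the kinase complex mTORC1 senses amino acids, none of 26 was called by edgeR. An unadjusted p below 0.05 was found for 3, a share near the 13.2% of all genes. Of the 26, 19 were above 0, against 52.8% of all genes, and the median was 0.061. Flcn, folliculin, gave 0.72 ± 0.14 (adjusted p = 0.0522) and Rragc, a Rag GTPase gene, gave 0.38 ± 0.09 (adjusted p = 0.101). DESeq2 called these 2 as higher, against 1.04% of all genes. Flcn passed in edgeR without OPE 1 and without OPE 3, where 0.0958% and 0.518% of all genes were called higher. Rragb and Nprl2 gave 0.29 ± 0.11 and 0.25 ± 0.12 (adjusted p = 0.283 and 0.407).

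Slc7a11 is also known as a target of NRF2, the factor of the oxidative stress response. None of 15 NRF2 and glutathione genes tested was called by edgeR or DESeq2. An unadjusted p below 0.05 was found for 2, a share near the 13.2% of all genes. Of the 15, 5 were above 0, against 52.8% of all genes, and the median was -0.051. Hmox1, haem oxygenase, gave 0.31 ± 0.12 (adjusted p = 0.31), and Gclm, the modifier subunit of the enzyme that starts glutathione synthesis, gave 0.21 ± 0.10 (adjusted p = 0.411). Osgin1 gave -0.68 ± 0.28 (adjusted p = 0.327), and G6pdx, which supplies NADPH, gave -0.20 ± 0.11 (adjusted p = 0.498).

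**Figure D5:**
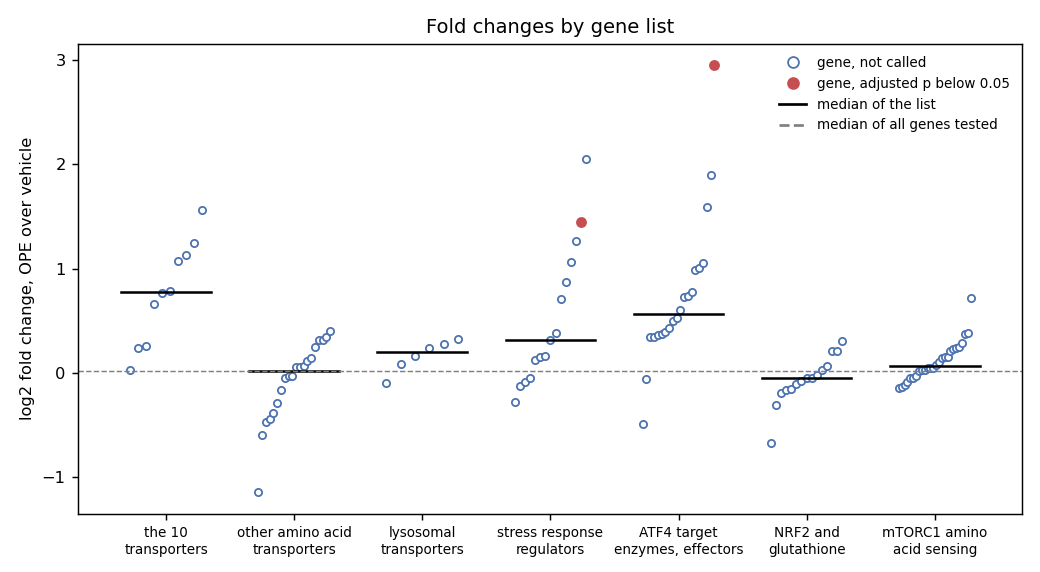
Log2 fold change of OPE over vehicle (y axis) for every tested gene of 7 lists (x axis; 1 point per gene, sorted within a list); black lines are list medians, the dashed line is the median of all 15517 genes tested and red points have an adjusted p below 0.05. The medians are 0.77 for the 10 transporters, 0.012 for the other amino acid transporters and 0.56 for the ATF4 target list, and Nupr1 and Gdf15 are the only red points.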

How the data were processed

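Messenger RNA selected with poly-T beads from cultured forelimb buds was sequenced in 8 libraries. Per the submitters' processing notes, the tools were STAR 2.5, CASAVA 1.8, DESeq2 (listed as version 2) and HTSeq 0.6.1, with build mm10. Their roles, the annotation release and strand use: not given in the sources used here. Per the file headers, the authors deposited for each library raw counts, a signal equal to the counts over a size factor (checked to be 1 constant per library), and FPKM values. The authors' deposited log2 fold change and p-value columns were only quoted.

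Groups came from the sample titles. The test of the raw counts used R 4.3.3 and edgeR 4.0.16, with TMM scaling, filterByExpr (15517 of 21692 genes kept), a robust quasi-likelihood fit by the legacy method with group as the only term, two-sided, Benjamini-Hochberg adjustment at 0.05. Standard errors follow from the fold change and the F statistic. Log2 CPM has a prior count of 2. The fits were tested on simulated data. Alternatives covered scaling, filters, DESeq2 1.42.0, limma 3.58.1 (voom), gene length, a replicate block and left-out libraries. Replicates differed by more than sampling noise in every pair (lowest chi-square over its degrees of freedom, 4.8).

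The members and gene lists, the naming rule and the alternatives were chosen with earlier results of these data known; the counts per list by DESeq2 and without OPE 1 or OPE 3 were added after seeing the data. The rule named all 10 members, up to 4 genes of smallest p and all called genes in each list, Atf4, Ddit3 and Asns, and the 3 nearest profiles of the members. Slc7a6, Tbx5, Ddit4, Cbs, Psph, Got1, Slc4a1, Atf3 and the eIF2 kinase genes lie outside the rule and were named with their values seen. Lists of cell type markers are given mainly by counts and sums. Exon overlaps come from GENCODE M21 on the same build.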

Additional observations from a re-analysis of the deposited data

Results flagged for a closer look

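In 20 sets of 4 libraries (10 genes in 2 groups), a library was set aside for a closer look where its gap to the nearest of the others took a share of the whole range above Dixon's 95% critical value, which chance does in about 1 of 20 sets. OPE 1 stood apart on the high side in 4 of the 10 OPE sets: Slc7a11 at 25.2 CPM against 12 CPM in the next library, Slc7a5 at 353 CPM against 151 CPM, Slc1a4 at 215 CPM against 92.7 CPM, and Slc1a5 at 48 CPM against 33 CPM. OPE 1 also had the lowest summed macrophage and endothelial marker levels. In the vehicle group Slc7a1 was at 60.6 CPM in vehicle 4 and at 64.2 CPM or more in the other 3 libraries. The 10 sets of a group come from the same 4 libraries, so several flags on 1 library are not independent. The values were CPM without a log. The cause was not tested for any of these flags.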

How the results depend on the processing

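The number of transporters called, 0 of 10 with all libraries, was 4 with DESeq2, 5 with limma-voom and sample weights, and 4 without both OPE 1 and OPE 3. It was between 0 and 3 when 1 library was left out, and stayed at 0 under the other 10 settings. Of all genes, 1.04% were called higher with DESeq2, 0.844% with sample weights and 0.144% without both OPE 1 and OPE 3. That share was 0.0958% without OPE 1 and 0.304% without OPE 4. The number of all genes called, 74 (6 higher and 68 lower), was 131 with scaling by library totals, 136 without a filter, 504 with DESeq2, 445 with sample weights, 112 with the newer quasi-likelihood method, 322 (151 higher and 171 lower) with the gene-length trend removed, and 7 to 308 with 1 library left out. Of the 10 transporters, 9 kept a fold change above 0 in all 21 settings; Slc38a1 gave -0.016 with library totals, -0.00047 with upper quartile scaling, and -0.065 to 0.14 with 1 library left out (below 0 without vehicle 2, OPE 1 or OPE 4, at -0.045, -0.065 and -0.024). The cause of these shifts was not tested. With the replicate number as a block, 62 genes and no transporter were called. Deviations of same-numbered libraries correlated at 0.31, 0.082, 0.013 and 0.092. OPE 1 and OPE 2 correlated best with the vehicle library of their own number. OPE 3 correlated best with vehicle 2 (0.36) and OPE 4 with vehicle 1 (0.16). These values do not settle whether the numbers mark pairs, and the main fit did not use them as pairs. Slc7a11 had the fewest reads of the 10, as few as 139 in a library, and how far depth limits each gene was not tested.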
